A study of Mus musculus with 24 samples.

Results

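The genes described here are 35 NRF2 and antioxidant genes, given as a list of symbols. All 35 were found by symbol among the 52636 gene models counted in each library, and all 35 had enough reads to be tested. They fall into 7 roles: regulators (4 genes), glutathione supply (5), the thioredoxin and peroxiredoxin system (9), heme breakdown and quinone reduction (3), NADPH supply (5), glutathione transferases (4) and removal of superoxide and peroxide (5). RNA was sequenced from mouse bone marrow-derived macrophages (BMDMs), cells grown from bone marrow progenitors into macrophages in culture. The study crossed genotype with treatment in 4 groups of 6 libraries: WT C57BL/6 in media, Ninj1KO in media, WT with Pam3 and Ninj1KO with Pam3. Ninj1 encodes a small membrane protein known for rupturing the plasma membrane late in lytic cell death, and Pam3 names lipopeptides that activate the bacterial lipoprotein receptor TLR2. The labels give no dose or time for Pam3 and no design of the knockout allele, and they do not tie libraries to separate mice or cultures. The p-values therefore rest on the spread among libraries alone, and that spread may be technical. No group had cells driven into lytic death by a second signal, as far as the labels say.

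NRF2 (gene Nfe2l2) is a transcription factor that the adaptor KEAP1 normally holds for degradation; oxidants and electrophiles modify KEAP1, and NRF2 then enters the nucleus and binds antioxidant response elements together with small MAF proteins. Its targets supply cystine and glutathione, reduce thioredoxin and peroxiredoxins, break down heme and make the NADPH that these cycles consume. In macrophages the same enzymes meet the oxidants that the cells themselves make after contact with microbes, and some of them are also induced by NF-kB, which TLR signalling activates.

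The libraries held 31302011 to 40663152 reads assigned to genes. Ninj1 was lower in Ninj1KO with no overlap between genotypes in either treatment, by -0.88 (SE 0.0874) on the log2 scale in media and -0.92 (SE 0.0872) after Pam3. Reads assigned to the gene were thus reduced and not lost. Whether the remaining reads come from an intact transcript was not tested. The TLR response genes Tnf, Il1b, Il6, Nfkbia and Nlrp3 were higher in all Pam3 libraries than in all media libraries of both genotypes, Tnf by 9.45 (WT) and 9.27 (Ninj1KO) on the log2 scale. Macrophage markers were abundant, with Lyz2 at 18404 CPM (reads scaled to library size, TMM-adjusted) or more in each library. The labels call the WT libraries male and give no sex for Ninj1KO, but Xist lay between 233 and 796 CPM in all groups and 4 Y-linked genes had 28 reads in all libraries together, which goes against the male label. WT Pam3 replicate 5 stood apart for many of the genes below. Replicate numbers follow the order of the deposited samples within each group, as the labels give none. Some log2 changes are given with and without replicate 5. The WT changes of Slc7a11, Gpx1, Blvrb, Prdx5 and Txn1 are given only with it, though it lay far from the other libraries there.

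The antioxidant response element has the core TGACNNNGC, and the related AP-1 site is TGANTCA; an element such as TGACTCAGC holds both. RefSeq promoters (GRCm38.p6, from 250 bases before to 50 bases after the start) were at hand for 31 of the 35 genes; those of Hmox1, Gclc, Gsr and Prdx6 were not used here. On either strand the element core was found in 10 of these 31 genes (32.3%), against 14.0% of all 27025 genes in the table. A gene can have several promoters. By promoter it was found in 10 of the 41 of these genes, against 12.4% of all 32851 promoters. The AP-1 site was found in 5 of the 31 genes (16.1%), against 9.0% of all genes, and in 5 of the 41 promoters, against 7.8% of all promoters. In Prdx1 and Me1 the pair of motifs shared 7 bases. Of the 20 genes in the table that rose with Pam3 in WT, 8 held the element core (Nfe2l2, Srxn1, Gclm, Prdx1, Pgd, Me1, Txnrd1 and G6pdx). Of the 7 that fell, Mgst1 and Sod1 held it, and of the 4 that did not pass the test none did. These counts describe letters in a window and not binding. The stretches around the matches that lie before the start are shown because these genes moved with Pam3 in opposite directions while carrying the same core; capitals mark the element core, or for Srxn1 its 2 AP-1 sites, and each runs 5′ to 3′ on the gene's own strand.
Prdx1 (chr4:116685436-116685504, plus strand): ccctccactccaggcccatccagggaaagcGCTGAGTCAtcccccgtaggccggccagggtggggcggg
Gclm (chr3:122245393-122245461, plus strand): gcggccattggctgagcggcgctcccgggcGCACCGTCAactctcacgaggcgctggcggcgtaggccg
Txnrd1 (chr10:82859084-82859152, plus strand): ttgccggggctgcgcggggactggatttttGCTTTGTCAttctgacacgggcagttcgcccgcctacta
Nfe2l2 (chr2:75704865-75704913, minus strand): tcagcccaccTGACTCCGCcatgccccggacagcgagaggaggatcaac
G6pdx (chrX:74428899-74428967, minus strand): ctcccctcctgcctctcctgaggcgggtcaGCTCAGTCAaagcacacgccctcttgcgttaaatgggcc
Mgst1 (chr6:138140441-138140509, plus strand): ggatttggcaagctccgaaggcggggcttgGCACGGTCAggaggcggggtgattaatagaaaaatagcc
Sod1 (chr16:90220676-90220744, plus strand): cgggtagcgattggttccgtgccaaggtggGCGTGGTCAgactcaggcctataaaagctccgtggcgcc
Srxn1 (chr2:152105392-152105515, plus strand): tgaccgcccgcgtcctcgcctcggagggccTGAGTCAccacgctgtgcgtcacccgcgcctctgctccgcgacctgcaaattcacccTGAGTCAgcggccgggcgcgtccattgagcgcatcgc
The element core of Prdx1 began 133 bases before the start, that of Gclm 134, that of Txnrd1 92, and those of Mgst1 and Sod1 56. In all of the first 7 but Nfe2l2 the core reads on the opposite strand, so it appears here with GC first and GTCA last.

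The first comparison asked how Pam3 changed these genes. In WT macrophages 23 of the 35 rose and 7 fell by edgeR's quasi-likelihood test at an adjusted p under 0.05, with a median log2 change of 0.81. Over all 14435 tested genes 40.6% rose and 44.2% fell in the same comparison, with a median of -0.05. In Ninj1KO macrophages 22 rose and 9 fell, with a median of 0.69, against 40.2% and 44.8% of all genes and a median of -0.07. In both genotypes rises covered all 4 regulators, all 3 genes of heme breakdown and quinone reduction, 4 of the 5 of NADPH supply and at least 4 of the 5 of glutathione supply, and falls covered most transferases and 4 of the 5 enzymes that remove superoxide and peroxide. The 35 genes together held 0.546% ± 0.00736 (SD, n = 6) of all reads in WT media and 1.22% ± 0.112 in WT Pam3. Replicate 5 of WT Pam3 was at 1.44%, and the other 5 libraries were at 1.17% ± 0.0366. In Ninj1KO their share was 0.557% ± 0.0142 in media and 1.18% ± 0.0306 after Pam3.

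**Figure D1:**
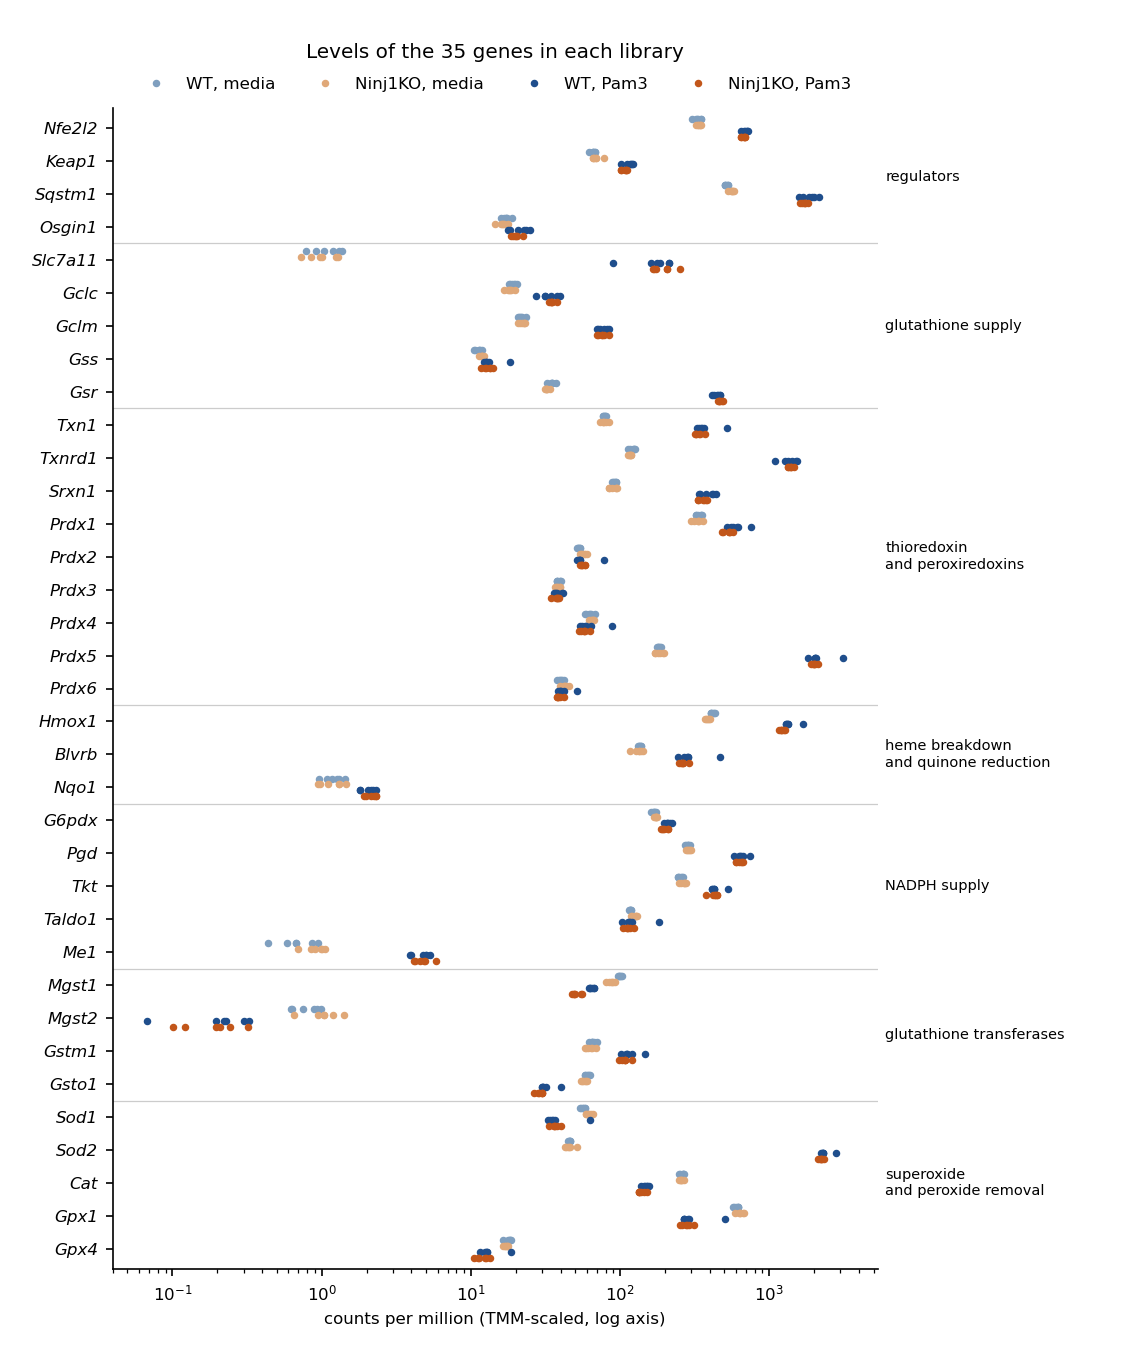
CPM (TMM-scaled, log axis) of each of the 35 genes in each of 24 libraries, 1 point per library, coloured by group and ordered by role. Slc7a11, Sod2, Gsr, Txnrd1 and Prdx5 show the widest gaps between media and Pam3, and single WT Pam3 points to the right for Sod1, Blvrb and Gpx1 are replicate 5.

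The 4 regulators rose in both genotypes. Nfe2l2 itself lay at 306, 331 and 349 CPM (lowest, median and highest library, the order used throughout) in WT media and at 647, 697 and 720 CPM in WT Pam3. In Ninj1KO it was at 322, 339 and 346 CPM in media and at 650, 679 and 687 CPM after Pam3. No Pam3 library overlapped a media library, and the log2 changes were 1.06 (SE 0.0361) in WT and 0.995 (SE 0.0360) in Ninj1KO. Keap1, which encodes the adaptor that restrains NRF2, rose by 0.81 (SE 0.0461) and 0.64 (SE 0.0460). Sqstm1, whose product p62 binds KEAP1 and delivers it to autophagy, went from a WT median of 514 to 1891 CPM, and its Ninj1KO median went from 562 to 1713 CPM. Its log2 changes were 1.85 (SE 0.0541) and 1.61 (SE 0.0537). Osgin1, an NRF2 target that restrains growth, rose by 0.30 in each genotype, and its WT media and Pam3 libraries overlapped. With no scaling beyond library size, Osgin1 turned to -0.22 in WT and -0.18 in Ninj1KO.

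Among the 35 genes the largest change was in glutathione supply, in 1 gene. Slc7a11 (chr3:49892526-50443614), the cystine carrier of system xc-, was almost silent in media, at 0.785, 1.12 and 1.37 CPM in WT and 0.730, 0.996 and 1.29 CPM in Ninj1KO. After Pam3 it was at 89.2, 181 and 213 CPM in WT and at 168, 189 and 252 CPM in Ninj1KO. All Pam3 libraries were above all media libraries, with log2 changes of 7.28 (SE 0.206) and 7.58 (SE 0.210), or 156-fold and 191-fold. The lowest WT Pam3 value is that of replicate 5. Gsr (chr8:33652523-33698163), glutathione reductase, went from 32.4, 34.8 and 37.0 CPM to 413, 450.0 and 466 CPM in WT. In Ninj1KO it went from 31.2, 32.2 and 33.9 CPM to 451, 467 and 491 CPM. Its log2 changes were 3.68 (SE 0.0409) and 3.86 (SE 0.0413), with no overlap between media and Pam3. The enzyme that starts glutathione synthesis rose in both subunits, the regulatory Gclm by 1.81 (SE 0.0510) in WT and 1.77 (SE 0.0509) in Ninj1KO, and the catalytic Gclc by 0.81 (SE 0.0649) and 0.95 (SE 0.0649). Gclm thus rose more than Gclc in each genotype, from a WT median of 21.6 to 75.6 CPM against 19.2 to 32.8 CPM. Gss, the synthetase that completes glutathione, rose by 0.29 (SE 0.0718) in WT, and by 0.19 (SE 0.0465) without replicate 5, which held 18.3 CPM against 12.3 to 13.2 CPM in the others. In Ninj1KO it stood at 0.14 (adjusted p = 0.0729), and the difference between genotypes was -0.15 (SE 0.101, adjusted p = 0.572). Its exons share 395 bases with Acss2 on the other strand, whose reads cannot be told apart in an unstranded library, and with no scaling beyond library size it turned to -0.24 in WT and -0.34 in Ninj1KO.

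In the thioredoxin and peroxiredoxin system 5 of 9 genes rose in both genotypes. Prdx5, a peroxiredoxin of mitochondria, peroxisomes and cytosol, rose from 176, 181 and 189 CPM to 1829, 2023 and 3110 CPM in WT. In Ninj1KO it rose from 170, 183 and 197 CPM to 1918, 2003 and 2107 CPM. The log2 changes were 3.58 (SE 0.0890) and 3.45 (SE 0.0885), and the 3110 CPM library is WT Pam3 replicate 5. Txnrd1, cytosolic thioredoxin reductase, had a WT median of 124 CPM in media and 1371 CPM after Pam3, and Ninj1KO medians of 117 and 1392 CPM. It rose by 3.49 (SE 0.0601) and 3.58 (SE 0.0603). Its substrate Txn1, thioredoxin, rose by 2.26 (SE 0.0800) and 2.10 (SE 0.0796). Srxn1, sulfiredoxin, which repairs overoxidized peroxiredoxins, rose by 2.09 (SE 0.0594) and 1.99 (SE 0.0593). Prdx1, a main substrate of that repair, rose by 0.84 (SE 0.0668) and 0.68 (SE 0.0667). The other peroxiredoxins moved little. Prdx3 of mitochondria was at -0.01 and -0.03, and Prdx2 of the cytosol at 0.12 and -0.01, none of them called. Prdx4 of the endoplasmic reticulum (0.02 in WT) and Prdx6, which uses glutathione (0.08 in WT), were called lower in Ninj1KO alone, at -0.18 (adjusted p = 0.0437) and -0.12 (adjusted p = 0.0426). The differences between genotypes in these responses were -0.19 (adjusted p = 0.506) and -0.20 (adjusted p = 0.271), and both calls were lost in DESeq2 (adjusted p = 0.113 and 0.149) and limma (0.0818 and 0.119). They were also lost in 18 and 17 of the 24 fits that left out 1 library. Without WT Pam3 replicate 5, Prdx4 was called lower in WT too, at -0.10 (adjusted p = 0.0296).

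**Figure D2:**
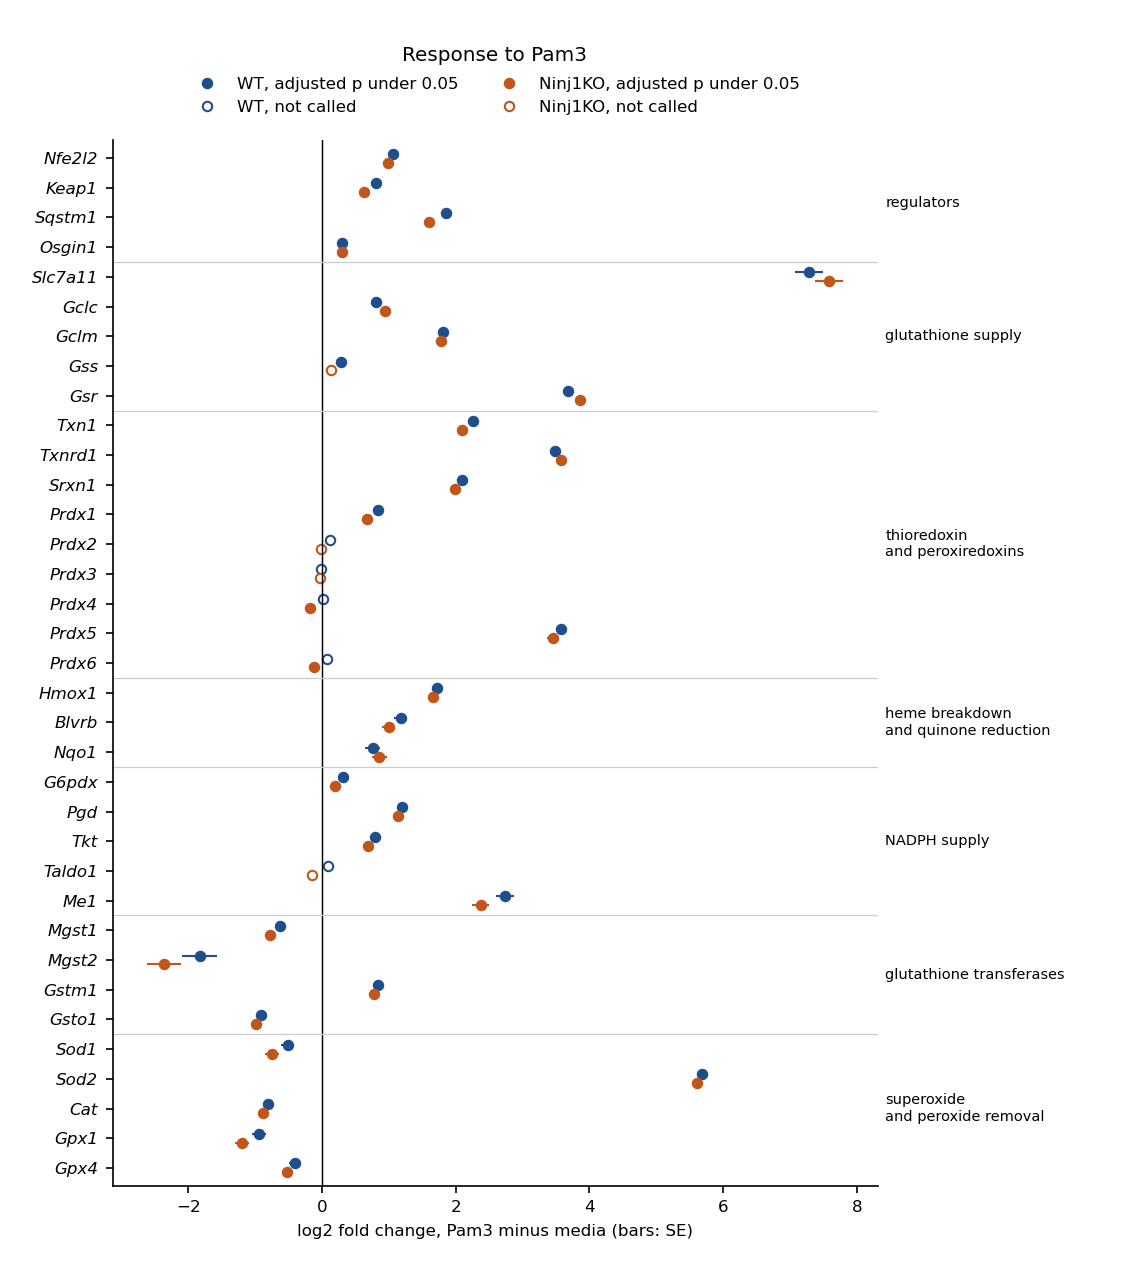
Log2 fold change of each gene, Pam3 minus media, in WT (blue) and Ninj1KO (orange), with SE bars and filled points where the adjusted p is under 0.05. The points of both genotypes lie close together for most genes, from Slc7a11 at 7.28 and 7.58 down to Mgst2 at -1.83 and -2.36.

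Heme breakdown and quinone reduction rose as well. Hmox1 (chr8:75093621-75100589), heme oxygenase 1, went from 406, 414 and 432 CPM to 1293, 1326 and 1674 CPM in WT, and from 374, 385 and 404 CPM to 1170, 1214 and 1271 CPM in Ninj1KO. The log2 changes were 1.73 (SE 0.0492) and 1.66 (SE 0.0491). Blvrb, which reduces biliverdin and flavins, rose by 1.18 (SE 0.0995) and 0.996 (SE 0.0992), and its WT Pam3 libraries ran from 244 to 287 CPM apart from replicate 5 at 471 CPM. Nqo1, the quinone reductase often used as a readout of NRF2, rose by 0.76 (SE 0.114) and 0.86 (SE 0.113) but stayed scarce, at 1.81, 2.09 and 2.32 CPM in WT Pam3. With no scaling beyond library size the WT rise of Nqo1 was 0.24 and not called (adjusted p = 0.0509).

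Of the 5 genes of NADPH supply, 4 rose in both genotypes. Pgd, the later of the dehydrogenases in the pentose phosphate pathway, had WT medians of 285 CPM in media and 643 CPM after Pam3, and Ninj1KO medians of 289 and 636 CPM. It rose by 1.20 (SE 0.0459) and 1.14 (SE 0.0458). Tkt, transketolase, rose by 0.80 (SE 0.0522) and 0.69 (SE 0.0521). G6pdx, which commits glucose to the pathway, rose less, by 0.32 (SE 0.0352) and 0.19 (SE 0.0351). With no scaling beyond library size G6pdx turned to -0.20 in WT and -0.29 in Ninj1KO, and 418 bases of its exons lie over Ikbkg on the other strand. Me1, malic enzyme 1, rose by 2.74 (SE 0.134) and 2.37 (SE 0.128) from a low level, 0.675 to 4.90 CPM by WT medians. Taldo1, transaldolase, was at 0.09 and -0.14 and not called in either genotype.

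The transferases went mainly the other way. Mgst2, a microsomal transferase, fell by 1.83 (SE 0.261) in WT and by 2.36 (SE 0.252) in Ninj1KO, but at levels under 1.41 CPM in every library. Gsto1, omega class transferase 1, fell by 0.91 (SE 0.0560) and 0.99 (SE 0.0561). Mgst1 (chr6:138140316-138156755), a membrane-bound transferase that also reduces lipid peroxides, fell by 0.63 (SE 0.0403) and 0.77 (SE 0.0405). Gstm1, mu class transferase 1, was the one that rose, by 0.83 (SE 0.0648) and 0.78 (SE 0.0648), though 18.9% of its 50-base windows also occur in other genes, above all its relatives.

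Enzymes that remove superoxide and peroxide were split. Sod2 (chr17:13006846-13040063), the mitochondrial superoxide dismutase and a known NF-kB target, lay at 45.0, 45.9 and 46.0 CPM in WT media and 2227, 2286 and 2799 CPM in WT Pam3. In Ninj1KO it lay at 42.8, 45.2 and 51.2 CPM in media and 2119, 2224 and 2331 CPM after Pam3. The log2 changes were 5.69 (SE 0.0590) and 5.60 (SE 0.0588), about 51.5-fold and 48.6-fold. Sod1, the cytosolic form, fell by 0.51 (SE 0.101) in WT and by 0.75 (SE 0.101) in Ninj1KO. Gpx1, cytosolic glutathione peroxidase, went from 571, 608 and 620 CPM to 267, 277 and 503 CPM in WT and from 587, 635 and 677 CPM to 253, 279 and 314 CPM in Ninj1KO. Its log2 changes were -0.94 (SE 0.107) and -1.19 (SE 0.107). Cat, catalase, fell by 0.81 (SE 0.0377) and 0.88 (SE 0.0377). Gpx4, which protects lipids from peroxidation, fell by 0.41 (SE 0.0803) and 0.52 (SE 0.0807), with 34.7% of its windows also found in other genes, led by the pseudogene Gpx4-ps2. The WT libraries of Sod1 and Gpx4 overlapped between media and Pam3 only through replicate 5 (62.5 and 18.7 CPM), and without it Sod1 stood at -0.69 in WT.

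The split between rises and falls depended on how the libraries were scaled. Without composition scaling the median of all genes moved by -0.52 in WT and -0.48 in Ninj1KO, and 19 of the 35 rose and 15 fell in WT, against 24.8% and 62.7% of all genes. In Ninj1KO 20 rose and 15 fell, against 25.5% and 61.9%. With upper quartile factors the shifts were -0.20 and -0.18, and the counts were 21 and 8 in WT, against 34.3% and 51.0% of all genes, and 20 and 12 in Ninj1KO, against 34.3% and 51.1%. In DESeq2 the counts were 23 and 7 in each genotype. The counts of rises did not move by more than 1 gene when any library was left out.

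Deposited RPKM values, which are per gene length, allow levels to be compared between genes. In WT media Gpx1 led at 499 ± 17.8 RPKM (SD, n = 6), followed by Hmox1 (236 ± 6.41 RPKM), Sqstm1 (163 ± 4.17), Nfe2l2 (119 ± 6.58) and Prdx1 (118 ± 6.12). Nfe2l2 and Prdx1 were neighbours in this order whose libraries overlapped. The lowest were Slc7a11 (0.0998 ± 0.0210 RPKM), Me1 (0.172 ± 0.0448) and Nqo1 (0.693 ± 0.0977). In WT Pam3 Prdx5 led at 1367 ± 286 RPKM, ahead of Hmox1 (797 ± 82.2), Sqstm1 (599 ± 66.4) and Sod2 (559 ± 50.2). Gpx1 had gone to rank 8 (266 RPKM). Replicate 5 raised these means, with 1941 RPKM of Prdx5 (others 1147 to 1300) and 424 RPKM of Gpx1 (others 227 to 245). In the other libraries Nfe2l2, at rank 9, lay above Gpx1 (249 to 264 RPKM). Sod2 moved from rank 27 to rank 4, and Slc7a11, in spite of the largest fold change, from rank 35 to rank 26 at 15.9 ± 4.24 RPKM. Of the 34 neighbouring pairs in the order, 16 overlapped between libraries in WT media and 25 in WT Pam3, so many adjacent ranks cannot be separated.

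The next comparison asked whether loss of Ninj1 changed these genes in resting macrophages. In media 1 of the 35, Mgst1, was lower in Ninj1KO and none was higher by edgeR, against 1.12% of all genes lower and 1.92% higher. At an unadjusted p under 0.05 there were 3 lower (Mgst1, Hmox1 and Gsr) and 3 higher (Sqstm1, Me1 and Mgst2), or 8.57% each way, against 6.05% and 6.91% of all genes. DESeq2 and limma also called Mgst1 alone. The median log2 difference was -0.00, equal to that of all genes at this rounding. Mgst1 lay at 80.7, 87.7 and 91.9 CPM in Ninj1KO and 96.8, 99.6 and 103 CPM in WT. The groups did not overlap, and the difference was -0.20 (SE 0.0398, adjusted p = 0.00504). All 6 Ninj1KO libraries were also below all 6 WT libraries for Hmox1 (374 to 404 against 406 to 432 CPM, adjusted p = 0.321), which makes 2 genes wholly lower against 2.11% of all genes. Another 3 were wholly higher without passing the test, against 2.16% of all genes: Sqstm1 (532 to 584 against 505 to 531 CPM), Taldo1 (119 to 129 against 115 to 119 CPM) and Sod1 (58.8 to 66.3 against 54.0 to 58.3 CPM). All libraries share 1 fit, and without WT Pam3 replicate 5 Prdx2 and Sod1 were called higher and Hmox1, Gsr and Mgst1 lower. Calls over all genes also grew without that library, from 277 to 658 higher and from 161 to 616 lower. The Sod1 difference was 0.13 with and without that library, while its SE went from 0.0994 to 0.0363.

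After Pam3, 2 of the 35 were lower in Ninj1KO than in WT, Mgst1 and Hmox1, against 2.75% of all genes, and 0 were higher, against 1.31%. At an unadjusted p under 0.05 there were 11 lower (31.4%) and 1 higher (Gsr, 2.86%), against 10.3% and 6.01% of all genes. DESeq2 and limma likewise called 2 lower and 0 higher. Mgst1 lay at 47.4, 49.8 and 55.5 CPM in Ninj1KO and at 62.3, 63.9 and 67.4 CPM in WT. The groups did not overlap, with a difference of -0.34 (SE 0.0408, adjusted p = 1.02e-05). The Mgst1 call held in both treatments under every alternative run and without each library in turn, with differences from -0.22 to -0.18 in media and from -0.36 to -0.29 after Pam3. Its exons overlap no other gene and none of its 50-base windows occur in another gene. Hmox1 lay at 1170 to 1271 CPM in Ninj1KO and 1293 to 1674 CPM in WT. These groups did not overlap either, and 2 of 35 genes wholly lower and 0 wholly higher compare with 1.63% and 0.894% of all genes. The Hmox1 difference was -0.17 (SE 0.0479, adjusted p = 0.0382). That call is near the threshold: it was lost without 17 of the 24 libraries taken singly and under 4 of 8 other settings, with adjusted p from 0.00803 to 0.261. It was -0.11 (adjusted p = 0.0115) without WT Pam3 replicate 5, the 1674 CPM library, so its size fell by over 1.5 times while the call held. Cat joined the lower calls without that library, and Sqstm1 and Prdx1 did without WT Pam3 replicate 6. Over all genes 826 and 453 were lower in these fits, against 397 in the fit reported. Fewer cells of a kind and less RNA per cell cannot be told apart in bulk libraries.

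**Figure D3:**
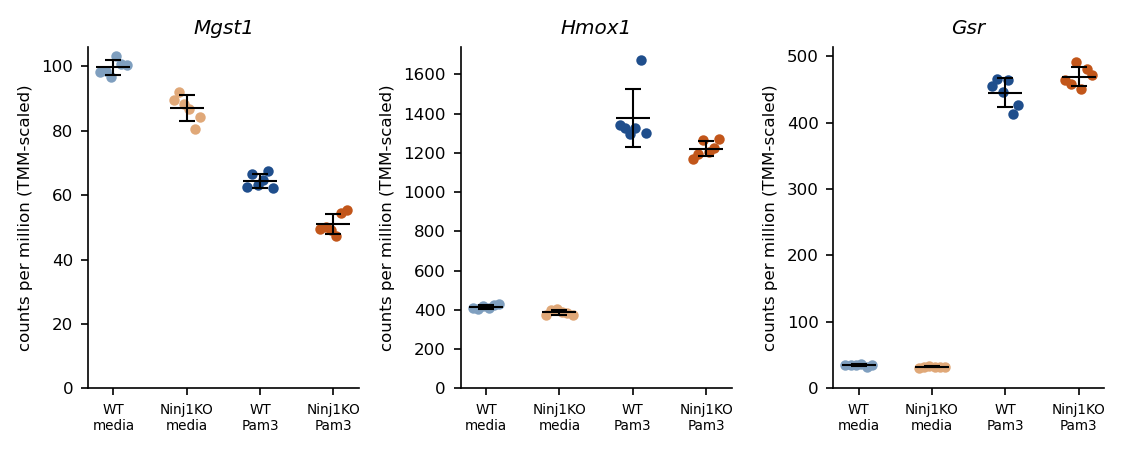
CPM (TMM-scaled) of Mgst1, Hmox1 and Gsr in each library of the 4 groups, with the mean and SD as black bars. Mgst1 is lower in Ninj1KO than in WT in both treatments with no overlap, Hmox1 overlaps in neither treatment but has 1 WT Pam3 library at 1674 CPM, and Gsr overlaps between genotypes in both.

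The fitted differences after Pam3 leaned to lower values in Ninj1KO, and leaving out 1 library reduced that lean. In that comparison 29 of the 35 fitted differences were below 0, with a median of -0.10 against -0.01 for all genes. Without WT Pam3 replicate 5, 23 were below 0 and the median was -0.03, against -0.01 for all genes. With no scaling beyond library size, 23 were below 0 and the median was -0.05, against 0.03 for all genes. That scaling moved the median of all genes up as well, by 0.049. Of the 29 in the main fit, all but Mgst1 and Hmox1 missed the test.

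**Figure D4:**
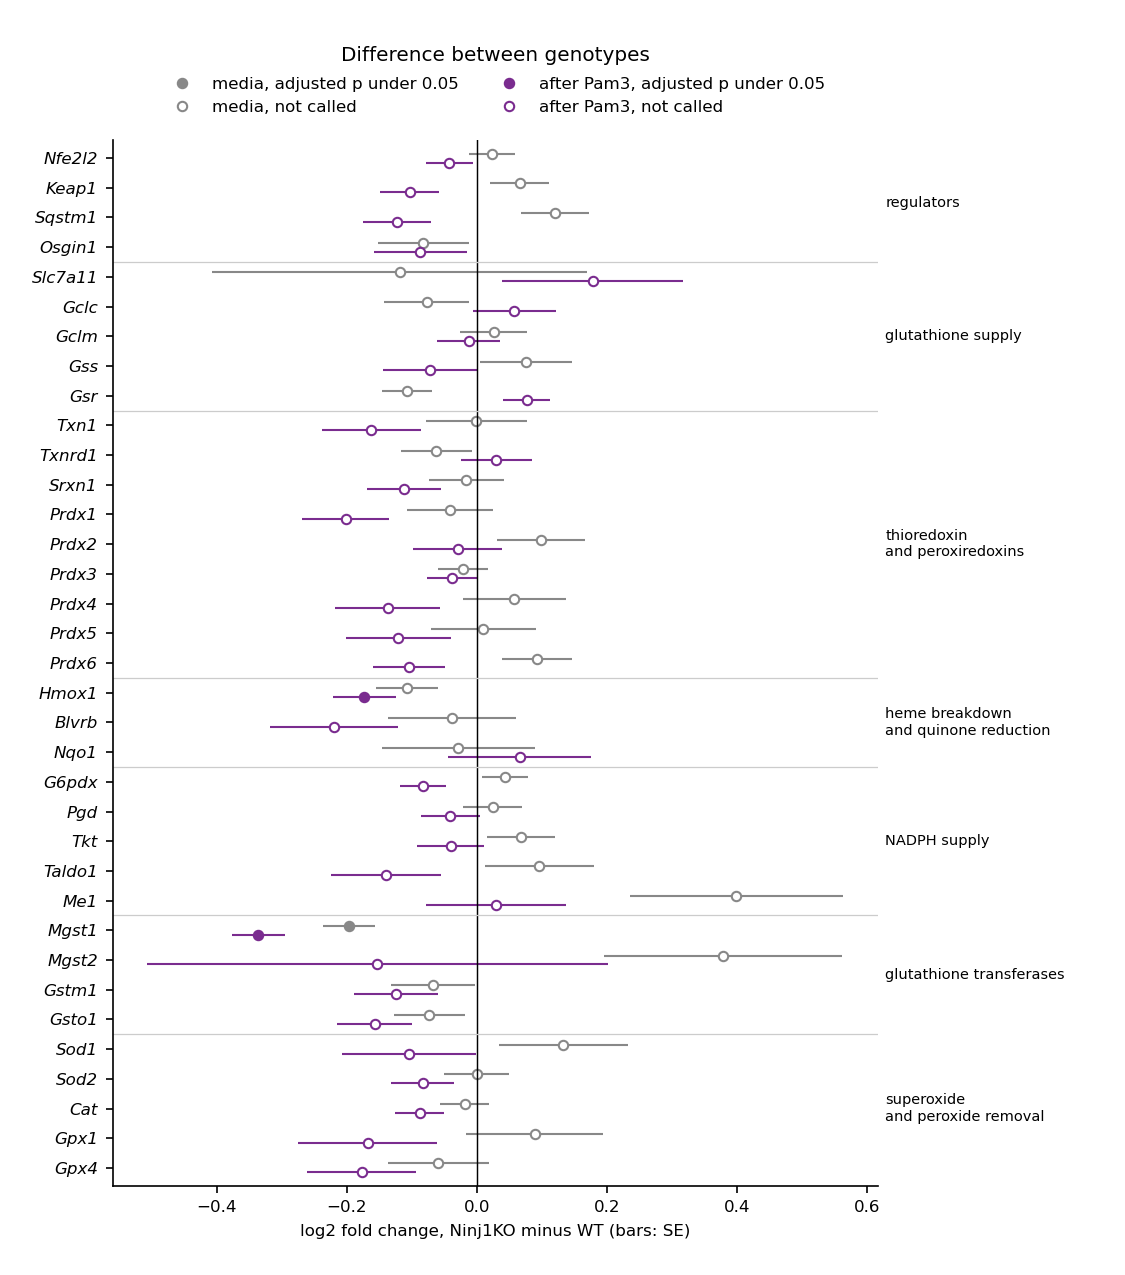
Log2 fold change of each gene, Ninj1KO minus WT, in media (grey) and after Pam3 (purple), with SE bars and filled points where the adjusted p is under 0.05. Only Mgst1 in both treatments and Hmox1 after Pam3 are filled, and most purple points lie slightly left of 0.

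The interaction asked whether the response to Pam3 differed between genotypes. By edgeR 0 of the 35 were called in either direction, against 0.173% of all genes with a larger response in Ninj1KO and 0.589% with a smaller one. At an unadjusted p under 0.05 there was 1 of the 35 with a positive value, Gsr (0.18, SE 0.0527, adjusted p = 0.0940), against 4.16% of all genes. Another 5 had negative values, against 8.09% of all genes: Sqstm1 (-0.24, SE 0.0741, adjusted p = 0.120), Mgst1, Keap1, Prdx6 and G6pdx. DESeq2 called both Gsr (adjusted p = 0.0258) and Sqstm1 (adjusted p = 0.0427), and limma called none. Over all genes DESeq2 called 85 positive and 305 negative values, where edgeR called 25 and 85. Gsr was slightly lower in Ninj1KO in media (-0.11) and slightly higher after Pam3 (0.08), neither called. For Slc7a11 the difference in response was 0.30 with SE 0.320 (adjusted p = 0.713).

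Other NRF2 pathway genes, a list of 85 of which 82 could be tested, moved in both directions with Pam3. In WT 29 rose and 44 fell, with a median of -0.31, and in Ninj1KO 27 rose and 44 fell, with a median of -0.46. All tested genes had 40.6% higher and 44.2% lower in WT (median -0.05) and 40.2% and 44.8% in Ninj1KO (median -0.07), the background for the subgroup counts too. Maff, a small MAF protein and so a DNA-binding partner of NRF2, rose most, by 6.51 (SE 0.0785) in WT and 6.45 (SE 0.0788) in Ninj1KO. Ggct, of the gamma-glutamyl cycle, came second in both genotypes, at 3.20 and 2.92. Glrx, glutaredoxin (2.26 and 2.34), Abcc1, an exporter of glutathione conjugates (2.09 and 2.26), and Gstt1, a theta class transferase (2.23 and 2.13), were among the 6 largest rises in both. Gsta3, an alpha class transferase, was among them in WT (2.31), and Chac1, which degrades glutathione, in Ninj1KO (2.16). The largest fall was in Slc40a1, the iron exporter ferroportin, at -4.02 (SE 0.0587) and -3.97 (SE 0.0588). The sestrins Sesn3 (-3.28 and -3.50) and Sesn1 (-3.05 and -3.02) followed, with Bach2, a repressor that competes at the same elements (-3.04 and -3.06), and Ggt5, which cleaves extracellular glutathione (-2.80 and -3.48). Nqo2, a relative of Nqo1, completed the falls in WT (-2.52) and Msrb2, a methionine sulfoxide reductase, those in Ninj1KO (-2.59). By subgroup, partners and repressors of NRF2 had 7 of 12 higher and 3 lower in each genotype, and the glutathione cycle had 10 of 17 higher and 6 lower. Of 25 tested genes of conjugation and of quinone or aldehyde reduction, 18 were lower in WT and 19 in Ninj1KO, with 4 higher in each.

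Between genotypes 0 of these 82 genes were higher and 1 was lower in Ninj1KO in media, against 1.92% and 1.12% of all tested genes. After Pam3 1 was higher and 3 were lower, against 1.31% and 2.75% of all tested genes. In media Slc40a1 was lower in Ninj1KO (209 against 252 CPM by group means, -0.27, SE 0.0502, adjusted p = 0.00227). After Pam3 Slc40a1 (-0.22, adjusted p = 0.0249), Gpx3, the secreted glutathione peroxidase (-0.36, adjusted p = 0.00409), and Slc48a1, a heme transporter (-0.15, adjusted p = 0.0442), were lower. Sod3, the extracellular superoxide dismutase, was higher (4.55 ± 1.35 against 2.94 ± 0.362 CPM, SD, n = 6, 0.64, adjusted p = 0.0249 by edgeR), and its libraries overlapped between genotypes.

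Some markers of other cells also differed by genotype. Of all tested genes 1.92% were higher and 1.12% lower in Ninj1KO in media, and 1.31% and 2.75% after Pam3. Of 9 tested of 10 neutrophil genes, Ngp, Ltf, S100a8 and S100a9 were higher in Ninj1KO in media (summed 91.0 to 105 CPM against 69.4 to 81.3 in WT), and Ngp and S100a8 after Pam3 (53.7 to 61.8 against 44.1 to 66.0 CPM). Of 10 stromal and endothelial genes, Col1a1, Col1a2, Col3a1, Sparc, Pdgfrb and Cxcl12 were higher in media (summed 55.2 to 98.9 against 40.98 to 52.0 CPM), and Col1a2, Col3a1 and Dcn after Pam3 (140 to 187 against 101 to 141 CPM). Of 10 macrophage markers, Fcgr1 was higher in Ninj1KO in media, and after Pam3 Itgam was higher and Mertk, Cd68 and Mrc1 were lower. Single genes of other lists were Epor, lower in media, and Zbtb46, higher, and Cd4, lower, after Pam3. The part of these lists in the results for Mgst1 and Hmox1 was not tested.

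**Figure D5:**
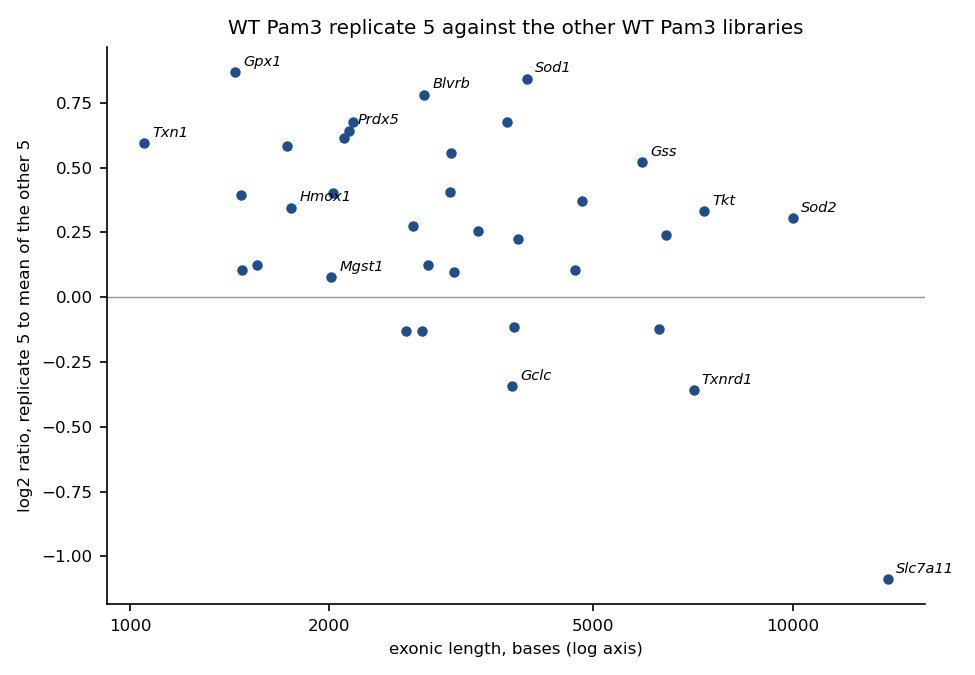
Log2 ratio of WT Pam3 replicate 5 to the mean of the other 5 WT Pam3 libraries for each of the 35 genes, against exonic length (GENCODE M21, log axis). Most genes lie above 0, Gpx1 and Sod1 highest, and Slc7a11, the longest, is lowest at -1.09.

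WT Pam3 replicate 5 lay above all 5 other WT Pam3 libraries for 25 of the 35 genes, below them for 6 and within them for 4. Its log2 ratio to their mean ran from 0.87 (Gpx1), 0.84 (Sod1) and 0.78 (Blvrb) to -0.36 (Txnrd1) and -1.09 (Slc7a11). Among 7798 genes with a mean of at least 10 CPM, it lay above the others for 41.6% and below them for 44.7%. In these genes the ratio went with exonic length, with a median of 0.57 in 462 genes under 1500 bases, 0.24 in 2542 genes from 1500 to 4000 and -0.23 in 4794 longer ones (Spearman's rho -0.64 across genes, which are not independent replicates). Over the 35 genes the same correlation was -0.34. Mgst1 in this library was at 67.4 CPM, close to the other 5 at 62.3 to 66.7 CPM.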

How the data were processed

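PolyA RNA of 24 BMDM libraries was sequenced as single-end 50-base reads from an unstranded TruSeq v2 kit, per the labels' protocols. GSNAP and GRCm38 are named in the submitters' processing notes, without versions. Per the file headers, the deposited count holds uniquely aligned reads for each gene model, and the deposited RPKM is adjusted by a size factor. Gene IDs were named with GENCODE M21 (52489 of 52636 models, the other 147 holding 0.00387% of counts). The 35 genes, the 85 pathway genes and the marker lists were chosen with earlier results of these data known. All members are named; of pathway genes, the 6 largest rises and falls with Pam3 and each one called between genotypes.

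Counts were fitted with edgeR 4.0.16 (TMM, filterByExpr, quasi-likelihood F-test, 24 libraries in 1 fit, 14435 genes), and p-values were adjusted over all tested genes by Benjamini-Hochberg at 0.05. CPM are TMM-scaled, with factors from 0.813 to 1.20. Alternatives were DESeq2 1.42.0, limma 3.58.1 on log2(RPKM + 0.1), other scalings and filters, and leaving out each library. The scripts were tested on simulated data. No pair of libraries was alike within sampling noise. Exonic length and the share of 50-base windows found in other genes came from GENCODE M21.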

Additional observations from a re-analysis of the deposited data

Results flagged for a closer look

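In 140 sets of 6 libraries (35 genes in 4 groups), the highest or lowest library lay further from the rest than Dixon's 95% limit of 0.625 for 6 values 17 times; chance alone would do so in about 1 in 20 sets. Of these, 15 were the same library, WT Pam3 replicate 5, and each time it was the highest. It held 503 CPM of Gpx1 (others 267 to 289), 62.5 CPM of Sod1 (32.7 to 36.9), 471 CPM of Blvrb (244 to 287), 181 CPM of Taldo1 (103 to 121) and 3110 CPM of Prdx5 (1829 to 2069). It held 88.8 CPM of Prdx4, 524 CPM of Txn1, 18.7 CPM of Gpx4, 78.2 CPM of Prdx2 and 18.3 CPM of Gss. The remaining 5 were Gsto1 at 40.4 CPM, Prdx6 at 51.8 CPM, Hmox1 at 1674 CPM, Tkt at 531 CPM and Sod2 at 2799 CPM. Outside that library, Keap1 was high in Ninj1KO media replicate 1 (77.5 CPM, others 65.7 to 69.0), and Sod2 was low in WT media replicate 6 (45.0 CPM, others 45.8 to 46.0). By edgeR no gene of the 35 passed the test of a difference in the Pam3 response between genotypes. DESeq2 called Gsr (adjusted p = 0.0258) and Sqstm1 (adjusted p = 0.0427), with 85 positive and 305 negative calls over all genes.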

How the results depend on the processing

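Across 8 other settings and 24 fits without 1 library each, the counts of genes that rose with Pam3 stayed at 19 to 23 in WT and 20 to 23 in Ninj1KO. With library size only, 15 fell in each genotype (7 and 9 in the fit reported), where 62.7% and 61.9% of all genes fell. In Ninj1KO after Pam3, 1 (Gsr) was higher and 1 (Mgst1) lower with this scaling, and 1 (Gsr) was called in the interaction. Over all genes this scaling called 412 higher and 220 lower after Pam3, and 34 positive and 54 negative values in the interaction. There, the Pam3 change turned to -0.20 (G6pdx), -0.24 (Gss), -0.22 (Osgin1), -0.40 (Prdx2), -0.50 (Prdx4), -0.45 (Prdx6) and -0.43 (Taldo1) in WT and to -0.29 (G6pdx), -0.34 (Gss) and -0.18 (Osgin1) in Ninj1KO. Leaving out 1 library moved Prdx4 in WT between -0.10 (without WT Pam3 replicate 5) and 0.062. DESeq2 called 1 gene higher and 1 lower in the interaction, and 85 and 305 over all genes. Fitting only the groups compared gave 4 higher (Prdx2, Sod1, Sqstm1 and Taldo1) and 2 lower (Hmox1 and Mgst1) in media, and 1 lower (Mgst1) after Pam3. The latter count was also 1 with no filter and with upper quartile factors, where 183 and 326 of all genes were lower. Over all genes, fitting only the groups compared called 581 higher and 531 lower in media (277 and 161 in the fit reported). After Pam3 it called 63 higher and 114 lower (189 and 397 in the fit reported). The calls among the genes described here thus moved along with those over all genes. Leaving out 1 library gave 0 to 2 higher and 1 to 3 lower in media, 1 to 4 lower after Pam3, and 0 to 1 in each direction of the interaction. The extremes of media came without WT Pam3 replicate 5 and the 4 after Pam3 without WT Pam3 replicate 6. In other pathway genes, without WT Pam3 replicate 5, 4 were higher and 2 lower in media (0 and 1 with it). After Pam3 2 were higher (1 with it), an alternative added after seeing the data. Over all genes that fit called 658 higher and 616 lower in media (277 and 161 with the library). After Pam3 it called 352 higher and 826 lower (189 and 397 with the library). The causes were not tested. No paired analysis was possible because the labels give no replicate numbers, and those used here only follow the order of the deposited samples. Genes under about 2 CPM (Mgst2, and Slc7a11, Me1 and Nqo1 in media) have the widest errors. Small changes with Pam3, such as those of G6pdx, Gss and Osgin1, depend on the scaling.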
